A study of Mus musculus with 10 samples.

Results

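The comparison described here is the time that Lewis lung carcinoma (LLC) cells, a mouse line from a lung tumour of a C57BL/6 mouse, spent in serum-free medium at pH 7.4, read as 12 h minus 4 h. It uses the 4 neutral arrays of those times out of 10 arrays in the series, chosen by their labels and not by any measured value. The line LLC-TDAG8 was made to express stably TDAG8, a G protein-coupled receptor that senses protons (gene Gpr65), and the control line carries the control vector. Serum was withdrawn from both lines for 12 h, in medium with albumin at pH 7.4, before they were kept in the same kind of medium at pH 7.4 for 4 h or 12 h, so all 4 groups share serum withdrawal and neutral medium. An array before this second step, called 0 h below, exists for each line, and matching arrays at pH 6.4 exist for both times. Each line and time has 1 array, hybridised with equal parts of total RNA from 4 cultures. Whether a line is 1 clone is not stated in the labels. The study was designed to find genes that TDAG8 regulates in acid medium, and the neutral arrays are its controls. The lines serve here as matched repeats, with 2 arrays a side. The spread behind the p-values is how far the lines differ in their time course on such pooled arrays. A real difference between the lines counts in it as error, and the noise between repeated arrays cannot be told apart from it.

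Cells that lose serum growth factors tend to leave the division cycle before DNA replication. Genes for DNA replication are switched on at the border of G1 and S phase by E2F transcription factors, which the retinoblastoma protein family holds back in resting cells, and genes for mitosis come later, through the MuvB complex with B-MYB and FOXM1. FOXO factors, active when insulin and growth factor signals are low, switch on genes of stress resistance and arrest. Fibroblast-like cells also make extracellular matrix, and NF-kB drives chemokines in many tumour cells.

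Every array had been scaled by the submitters to a trimmed mean of 100 signal units, and array medians lay between 11.7 and 13.8. Of 15 mesenchymal markers 11 had a signal of at least 50 on all 4 arrays, among them Vim at 6910 to 7822, while Col1a1, Cdh2 and Thy1 stayed at or below 8.5. Of 10 epithelial markers only Krt8 did (1527 to 2099), and Epcam and Cdh1 reached at most 45.1 and 5.3. No lung lineage marker of 8, no leukocyte marker of 10 and 1 endothelial marker of 8 reached 50 on all 4 arrays. The summed signal of the mesenchymal list was 23068 and 23664 at 4 h and 24666 and 27247 at 12 h, and that of the leukocyte list was 111 to 149 on the 4 arrays. The part of other cells in the results was not tested. The probe set for Gpr65 read 1.9 to 5.3 on the 4 arrays, so the introduced receptor was not seen by it and it gives no check of the line labels.

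Between 4 h and 12 h at pH 7.4, 31 of 36 genes of DNA replication and 29 of 31 of mitosis read lower in both lines, where 31.4% of all genes did. Of the NF-kB, FOXO, lysosome, interferon and matrix lists, 17 of 24, 13 of 20, 19 of 31, 15 of 25 and 15 of 29 genes read higher in both lines, where 31.2% of all genes did. Some single differences were large against their standard error, such as 0.97 on the log2 scale for Crabp1 (standard error 0.09), but the test rests on 2 arrays a side. With limma's moderated test across 12161 genes, 0 genes (0%) passed an adjusted p of 0.05. The lowest adjusted p was 0.334, and 1556 genes had an unadjusted p under 0.05. With limma's trend and robust settings, which let the spread depend on the signal level and protect against outlying genes, 144 genes (1.18%) were called higher and 130 (1.07%) lower at an adjusted p under 0.05, and 2100 had an unadjusted p under 0.05. "Called" refers below to these 274 genes, and other values are given as values. The calls depend on single arrays: the count was 0 without the LLC-TDAG8 array at 4 h and 0 without the control array at 4 h. It was 360 without the LLC-TDAG8 and 210 without the control array at 12 h, with 171 and 145 of the 274 among them, and 532 and 506 without the LLC-TDAG8 and control arrays at 0 h, with all 274 among them. It was also 0 without the line as a block, 30 with no filter on low signals, 52 with all probe sets of a gene averaged and 25 with all 10 arrays, and median centring of the arrays moved the share called higher from 52.6% to 34.0%.

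Genes of the G1/S transition and DNA replication had the lowest median and the most calls among the 42 lists examined. Of 36 members tested, 31 were lower in both lines and 3 higher in both, against 3818 (31.4%) lower and 3792 (31.2%) higher in both lines over all genes tested. With the trend and robust settings 21 members were called lower and 0 higher, against the 1.07% of all genes called lower. The median difference was -0.41 on the log2 scale, -0.47 in LLC-TDAG8 and -0.35 in control cells, where the median over all genes was -0.00095. It stayed between -0.50 and -0.41 with median centring, with the values as deposited and with probe sets averaged. On arrays of whole cultures, fewer cells in S phase and less RNA of these genes per cell cannot be told apart. Differences below are 12 h minus 4 h on the log2 scale, the mean of both lines, and signals are as deposited. The standard error is limma's moderated one from the default fit (2 residual and 2.05 prior degrees of freedom). The trend and robust p-values rest on other standard errors, for example 0.087 for Fen1 and 0.18 for Tet2, beside 0.10 and 0.12 in the default fit.

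The clearest members act at the replication fork. Fen1, the nuclease that trims the flaps of Okazaki fragments, had a signal of 487 at 4 h and 294 at 12 h in LLC-TDAG8 cells, and 556 and 347 in control cells. Both 12 h arrays thus lay below both 4 h arrays, and the difference was -0.70 ± 0.10 (adjusted p = 0.334 in limma, 0.00644 with trend and robust). Here and below, genes named by rank were picked by their differences on these same 4 arrays. A lack of overlap is therefore partly built in, and it is given as a description. How many of all genes lack overlap was not counted. Pole, the catalytic subunit of the leading-strand polymerase, had 264 at 4 h and 154 at 12 h in LLC-TDAG8 cells, and 252 and 163 in control cells. Its groups did not overlap either, with a difference of -0.71 ± 0.10 (trend and robust adjusted p = 0.0103). Gins1, a subunit of the GINS complex in the replicative helicase, had 295 at 4 h and 172 at 12 h in LLC-TDAG8 cells, and 302 and 200.4 in control cells, again without overlap, and a difference of -0.70 ± 0.10. Lig1, the ligase that seals Okazaki fragments, differed by -0.59 ± 0.09 and Pold1, of the lagging-strand polymerase, by -0.46 ± 0.09. Pcna, the sliding clamp, had 3653 at 4 h and 2923 at 12 h in LLC-TDAG8 cells, and 4076 and 3306 in control cells. It was lower by the same small step in each line (-0.34 in LLC-TDAG8 and -0.34 in control cells). Pola1, of the primase complex, was lower by a similar amount (-0.43 ± 0.10).

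All 6 subunits of the MCM helicase, which is loaded on origins in G1 and unwinds DNA in S phase, were called lower. Their differences ran from -0.58 for Mcm4 and -0.55 for Mcm5 over -0.50 for Mcm2 and -0.41 for Mcm6 to -0.40 for Mcm7 and -0.40 for Mcm3, each with a standard error of 0.09 or 0.10. Mcm5 read 1475 at 4 h and 962 at 12 h in LLC-TDAG8 cells, and 1741 and 1254 in control cells. For Mcm5 both 12 h arrays were below both 4 h arrays. Cdc6, which loads the helicase together with Cdt1, had 200.4 at 4 h and 141 at 12 h in LLC-TDAG8 cells, and 247 and 161 in control cells. Its difference was -0.57 ± 0.09, with no overlap, and that of Cdt1 was -0.41 ± 0.10. Genes of nucleotide supply were called lower too, Tk1 (thymidine kinase) by -0.52 ± 0.09 and Rrm1 (the large subunit of ribonucleotide reductase) by -0.50 ± 0.10. For Tk1 the lines differed in level, so that the control array at 12 h (458) was above the LLC-TDAG8 array at 4 h (407). Rrm2, the other subunit, gave -0.24 ± 0.09 and was not called.

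Among the regulators, E2f2, an activating E2F, had 90.9 at 4 h and 46.7 at 12 h in LLC-TDAG8 cells, and 63.2 and 43.5 in control cells. The 4 h arrays were both above the 12 h arrays, at a low signal and by unequal steps (-0.95 in LLC-TDAG8 and -0.58 in control cells), and the difference was -0.77 ± 0.16. E2f8, a repressing E2F that is itself an E2F target, gave -0.52 ± 0.10, and Ccne2, one of the cyclins E, -0.43 ± 0.11. Both were called lower, while E2f1 (-0.33 ± 0.11) and Ccne1 (-0.24 ± 0.10) were not. The 3 members higher in both lines were the D-type cyclins, which act upstream of E2F: Ccnd1 gave 0.078 ± 0.09, Ccnd2 0.13 ± 0.09 and Ccnd3 0.17 ± 0.09, and none was called. Other named genes that were lower in both lines also act in replication, although they stood on no list: Dscc1, which helps load the clamp, gave -0.65 ± 0.09, Ticrr, needed to fire origins, -0.68 ± 0.11, Fancb, of the Fanconi anaemia core complex, -0.77 ± 0.12, and Lrr1, the part of a ubiquitin ligase that helps unload the helicase, -0.72 ± 0.09. With probe sets averaged Ticrr gave -0.33 ± 0.14. Mxd3, a MAX partner expressed in S phase, gave -0.67 ± 0.17.

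The promoters of replication genes are shown because these genes moved together. RefSeq promoters (build GRCm38.p6, 250 bases before to 50 after the annotated start) were found for 29 of the 36 members tested. The letters TTTNNCGC, a core of E2F sites, occurred on either strand in 13 of the 29 (44.8%), against 1425 of 27025 promoters in all (5.27%). Of the 17 members called lower that had a promoter, 10 held them. Matches may overlap, and the following stretches lie before the start site and hold the match in capitals.
Mcm5 (chr8:75109316-75109403, plus strand): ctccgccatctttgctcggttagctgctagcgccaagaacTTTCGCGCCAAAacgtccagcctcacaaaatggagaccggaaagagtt
Mcm6 (chr1:128359768-128359855, minus strand): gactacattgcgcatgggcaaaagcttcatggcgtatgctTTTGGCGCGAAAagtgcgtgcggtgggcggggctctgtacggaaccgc
Mcm7 (chr5:138172001-138172088, minus strand): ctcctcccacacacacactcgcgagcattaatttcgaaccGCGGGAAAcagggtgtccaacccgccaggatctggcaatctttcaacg
Cdc6 (chr11:98907973-98908060, plus strand): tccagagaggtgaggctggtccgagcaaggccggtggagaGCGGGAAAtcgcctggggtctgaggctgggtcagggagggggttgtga
Pola1 (chrX:93632246-93632333, minus strand): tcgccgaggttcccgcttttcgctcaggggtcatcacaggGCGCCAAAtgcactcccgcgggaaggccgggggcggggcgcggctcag
Uhrf1 (chr17:56303241-56303328, plus strand): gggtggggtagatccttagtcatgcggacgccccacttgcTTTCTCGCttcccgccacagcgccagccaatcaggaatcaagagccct
In Mcm5 and Mcm6 matches on both strands overlap and form 1 longer run of capitals. Fen1, Lig1, Tk1 and Pcna were called lower without these letters in their window. A match is a description of the sequence.

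**Figure D1:**
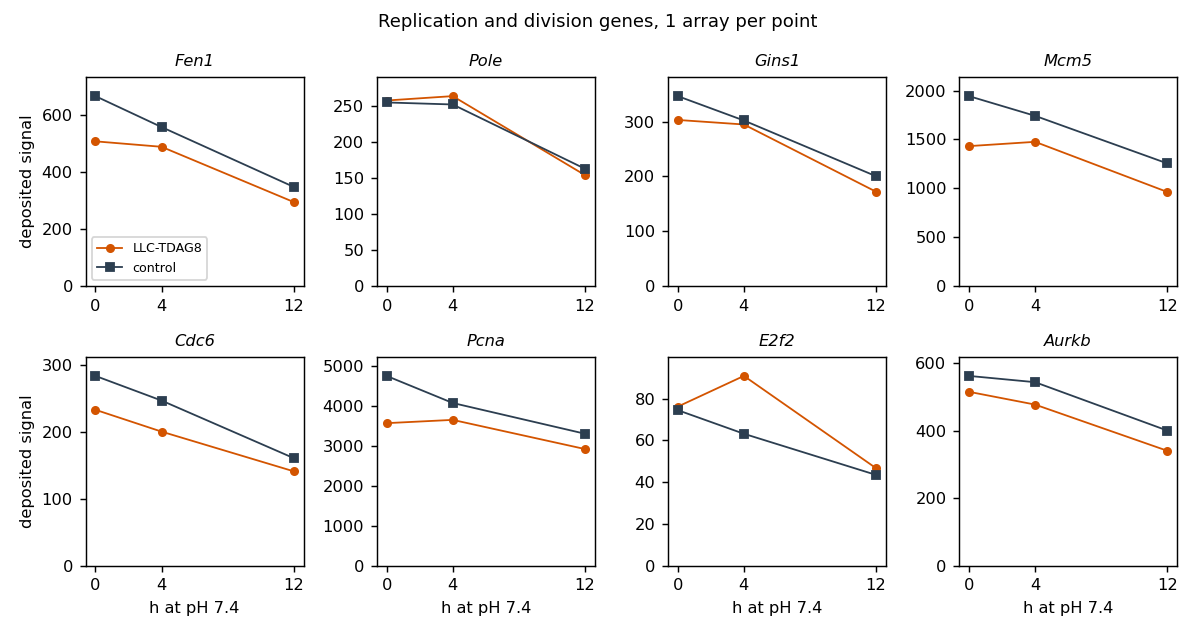
Deposited signal (y axis, linear from 0) against hours at pH 7.4 (x axis) for 8 replication and division genes, with orange circles for LLC-TDAG8 and dark squares for control cells and 1 array per point. In all 8 panels both lines are lower at 12 h than at 4 h, and for Fen1 the signal goes from 487 to 294 and from 556 to 347.

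Genes of mitosis showed a smaller difference in the same direction. Of 31 members tested, 29 were lower in both lines, 0 higher in both, and 2 were called lower (of all genes 31.4% were lower in both lines and 1.07% called lower), with a median of -0.22 (-0.29 in LLC-TDAG8 and -0.13 in control cells). Aurkb, the kinase of the chromosomal passenger complex, had 478 at 4 h and 341 at 12 h in LLC-TDAG8 cells, and 544 and 401 in control cells. Its groups did not overlap and its difference was -0.47 ± 0.09 (trend and robust adjusted p = 0.0207). Bub1, a kinase of the spindle checkpoint, gave -0.33 ± 0.09 (0.0486). Mki67, Top2a and Cdk1, widely used marks of cycling cells, gave -0.14 ± 0.09, -0.21 ± 0.09 and -0.19 ± 0.09 and were not called. For Ccna2 and Ccnb2, cyclins of S phase to mitosis, the control line did not share the direction (0.034 and 0.0064), while LLC-TDAG8 gave -0.41 and -0.18. The letters TTTGAA of the cell cycle homology region, through which the MuvB complex binds, occurred in 19 of 24 promoters of the mitosis list (79.2%), against 18.1% of all promoters, and not in the 1 promoter found for its 2 members called. The E2F letters were in 3 of the same 24 (12.5%). The following stretches before the start site show TTTGAA or its reverse complement in capitals.
Cdk1 (chr10:69352938-69353023, minus strand): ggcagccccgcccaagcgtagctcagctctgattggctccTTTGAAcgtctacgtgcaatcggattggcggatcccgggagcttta
Mki67 (chr7:135716450-135716535, minus strand): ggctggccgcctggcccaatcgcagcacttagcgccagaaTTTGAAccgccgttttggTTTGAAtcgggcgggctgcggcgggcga
Ccnf (chr17:24251494-24251579, minus strand): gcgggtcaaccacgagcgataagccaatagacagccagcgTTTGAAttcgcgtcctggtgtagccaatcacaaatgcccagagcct
In Mki67 the same letters come up again within the stretch shown.

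Ribosome biogenesis, which MYC promotes, also read lower. Of 36 members tested, 27 were lower in both lines and 0 higher in both, and 2 were called lower. Of all genes 31.4% were lower and 31.2% higher in both lines, and 1.07% were called lower. The list median was -0.19 in the mean and -0.19 and -0.19 in the LLC-TDAG8 and control lines. Cad, the enzyme that begins pyrimidine synthesis, gave -0.46 ± 0.10 and Rrp1b, a nucleolar protein, -0.54 ± 0.10, and these were the members called. Polr1a, the large subunit of RNA polymerase I, gave -0.37 ± 0.08 and Myc itself -0.14 ± 0.10, without a call. The ribosomal proteins did not share the shift: their median was 0.0029 with 4 of 23 members higher and 2 lower in both lines. Median centring turned the sign of that median (-0.025), where the median of all genes was -0.060.

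Several metabolic and stress lists had medians slightly below 0 and few members called, beside 31.4% of all genes lower in both lines and 1.07% called lower. Of 20 targets of NRF2, the regulator of antioxidant genes, 14 were lower in both lines and 1 was called, Pgd of the pentose phosphate pathway at -0.44 ± 0.12, and the list median was -0.18. Of 28 genes of oxidative phosphorylation 18 were lower in both lines, with a median of -0.10, and Sdhd, an anchor of succinate dehydrogenase, was called (-0.39 ± 0.10). Of 14 cytosolic heat shock genes 9 were lower in both lines, with a median of -0.12 and none called. The 37 genes of the ATF4 amino acid response were mixed: Chac1, which degrades glutathione, and Psat1, of serine synthesis, were called lower (-0.48 ± 0.12 and -0.30 ± 0.09) and Atf5, a transcription factor downstream of ATF4, higher (0.68 ± 0.12). Acta2, smooth muscle actin and a target of serum response factor, had 285 at 4 h and 153 at 12 h in LLC-TDAG8 cells, and 390.1 and 245 in control cells, no overlap, and a difference of -0.79 ± 0.12, but 0.038 with its probe sets averaged. That average takes all 3 probe sets of Acta2, of which 1 was at or above the filter level. Of the 21 targets of serum response factor and YAP, Acta2 was the one called, and the list median was -0.11.

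Named genes outside these lists gave some of the lowest values. Siva1, a regulator of apoptosis, had 376 at 4 h and 221 at 12 h in LLC-TDAG8 cells, and 406 and 247 in control cells. Both 12 h arrays were below both 4 h arrays, with a difference of -0.74 ± 0.10 (trend and robust adjusted p = 0.0064). Mgst3, a microsomal glutathione transferase, had 1086 at 4 h and 693 at 12 h in LLC-TDAG8 cells, and 1134 and 676 in control cells, and a difference of -0.69 ± 0.11. Etv4, an ETS factor induced by ERK signalling, had 50.6 at 4 h and 24.2 at 12 h in LLC-TDAG8 cells, and 59.4 and 36.5 in control cells. The difference was -0.89 ± 0.26 and was not called (trend and robust adjusted p = 0.0604). Etv4 had also been higher at 0 h (103 and 71.4). On the ERK feedback list Etv4 and Dusp5 were lower and 10 of 13 members higher in both lines, and none was called. Of all genes 31.4% were lower and 31.2% higher in both lines. Spry4 gave 0.50 ± 0.16 and Dusp6 0.14 ± 0.09. Banp, a nuclear matrix binding protein, had 70.9 at 4 h and 45.1 at 12 h in LLC-TDAG8 cells, and 68.1 and 35.2 in control cells. It gave -0.82 ± 0.16 and was called lower. Ptcd2, a mitochondrial RNA-binding protein, gave -0.65 ± 0.10 and was called lower too. A signal of at least 50 was required only at the higher time. At 12 h both lines read below 50 for Banp, Etv4 and E2f2, so these entered through their 4 h signals.

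The collagen and matrix list had the most members called higher of all lists. Of 29 collagen and matrix genes tested, 15 were higher and 4 lower in both lines, against 31.2% and 31.4% of all genes. The list had 8 members called higher, against 1.18% of all genes, and a median of 0.16. Dcn, the proteoglycan decorin, which binds collagen fibrils, had 701 at 4 h and 1309 at 12 h in LLC-TDAG8 cells, and 472 and 923 in control cells. The times did not overlap, the 12 h level was 1.95-fold the 4 h level, and the difference was 0.96 ± 0.11 (trend and robust adjusted p = 0.00217). Vcan, the proteoglycan versican, had 993 at 4 h and 1572 at 12 h in LLC-TDAG8 cells, and 938 and 1650.4 in control cells, a difference of 0.76 ± 0.10. With all probe sets averaged Vcan gave 0.19 ± 0.10 and Dcn 0.51 ± 0.23. Fn1, fibronectin, had 1212 at 4 h and 1889 at 12 h in LLC-TDAG8 cells, and 1502 and 2376 in control cells. The step was equal in the lines (0.66 and 0.66), although the control line was higher at each time. Lum, lumican, another proteoglycan of collagen fibrils, gave 0.52 ± 0.12, Col5a2 0.49 ± 0.09, Col6a3 0.38 ± 0.08, Col6a2 0.31 ± 0.08 and Sparc, a matricellular protein, 0.38 ± 0.11. The basement membrane collagens were flat, with Col4a1 at -0.02 ± 0.12 and Col4a2 at 0.023 ± 0.11.

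The list of matrix proteases, which also holds the urokinase receptor, read higher as well. Of 14 members tested, 9 were higher and 1 lower in both lines, 3 were called higher and the median was 0.25. Of all genes 31.2% were higher and 31.4% lower in both lines, and 1.18% were called higher. Mmp14, a membrane-bound collagenase, had 1037 at 4 h and 1762 at 12 h in LLC-TDAG8 cells, and 929 and 1245 in control cells. Both lines were higher at 12 h and the times did not overlap, with a larger step in LLC-TDAG8 (0.79) than in control cells (0.46), a gap that could not be tested. Adamts4, a proteoglycan-cutting enzyme, gave 0.67 ± 0.09 with equal steps, and Plaur, the urokinase receptor, 0.58 ± 0.14. Plat, tissue plasminogen activator, was the member lower in both lines (-0.37 ± 0.11, not called).

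Of the named genes chosen by rank, with a signal of at least 50 required only at the time when a gene was higher, those with the largest differences were higher at 12 h. At 4 h at least 1 line read below 50 for Selenop, Vsir, Trim12c, Tet2 and Rora, so these entered through their 12 h signals. Selenop, the selenium transport protein and a FOXO target in liver, had 49.3 at 4 h and 173 at 12 h in LLC-TDAG8 cells, and 82.7 and 186 in control cells. It was 2.75-fold higher at 12 h (1.46 ± 0.18, trend and robust adjusted p = 0.00439), with a larger step in LLC-TDAG8. Crabp1, which binds retinoic acid in the cytosol, had 1542 at 4 h and 2860.3 at 12 h in LLC-TDAG8 cells, and 805 and 1631 in control cells. Its difference of 0.97 ± 0.09 had the lowest p of the named genes (trend and robust adjusted p = 0.000561). Car6, a secreted carbonic anhydrase, had 93.9 at 4 h and 188 at 12 h in LLC-TDAG8 cells, and 109.8 and 244 in control cells, a difference of 1.08 ± 0.14. Tcp11l2 gave 1.05 ± 0.18, Pde4d, which degrades cyclic AMP, 0.86 ± 0.12, and Scara5, a ferritin receptor, 0.82 ± 0.09 (0.25 ± 0.26 with both probe sets averaged, and -0.029 in control cells). Vsir, an immune checkpoint ligand, gave 0.80 ± 0.13, Tet2, which oxidises methylcytosine, 0.85 ± 0.12, Crebrf, a regulator of nutrient and stress responses, 0.76 ± 0.09, Hspb11, a part of intraflagellar transport, 0.74 ± 0.09 (0.18 ± 0.28 with probe sets averaged), and Trim12c 0.78 ± 0.16. All of these were called higher. With probe sets averaged Vsir gave 0.43, Tet2 0.53 and Crebrf 0.46. Pde4d gave 0.60 ± 0.26 in that setting, at 0.097 in LLC-TDAG8 and 1.09 in control cells. Rora, a nuclear receptor that activates clock genes, was not called (signal at most 52.2, 0.90 ± 0.20, trend and robust adjusted p = 0.06).

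**Figure D2:**
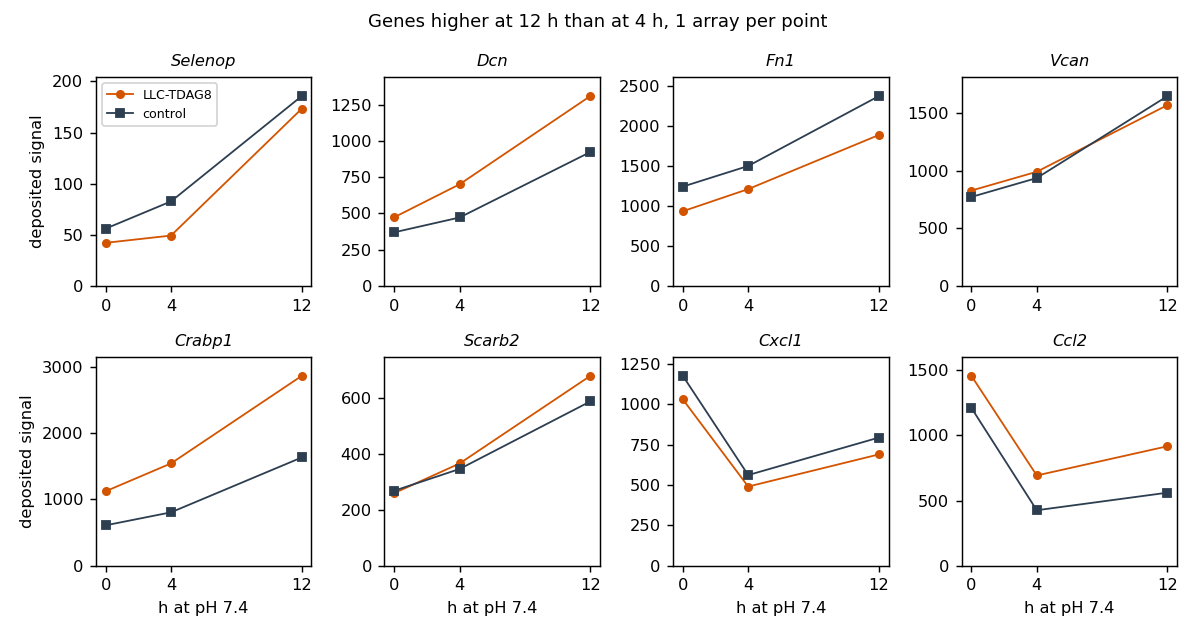
Deposited signal (y axis, linear from 0) against hours at pH 7.4 (x axis) for 8 genes that were higher at 12 h than at 4 h in both lines, with 1 array per point. The other panels climb from 0 h through 12 h, whereas Cxcl1 and Ccl2 drop between 0 h and 4 h and at 12 h remain below their 0 h signal.

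Targets of FOXO and p53 included several genes of growth arrest. Of 20 FOXO targets 13 were higher and 2 lower in both lines, with a median of 0.23 and 2 called higher (31.2% of all genes were higher in both lines, 31.4% lower, and 1.18% were called higher). Of 17 p53 targets 8 were higher and 2 lower in both lines, with a median of 0.11 and 2 called higher, against the same shares of all genes. The p53 median was 0.26 in LLC-TDAG8 but 0.013 in control cells. It was 0.022 with median centring, where that of all genes was -0.060, and 0.012 with probe sets averaged. Trp53inp1, a p53 target that promotes arrest and autophagy, had 142 at 4 h and 229 at 12 h in LLC-TDAG8 cells, and 108 and 179 in control cells, a difference of 0.70 ± 0.12 and 0 h signals of 80.7 and 71.9. On this probe set each line climbed at both steps. With both probe sets of Trp53inp1 averaged the difference was 0.53 ± 0.24, at 0.11 in LLC-TDAG8 and 0.95 in control cells. Sesn1, a sestrin that restrains mTORC1 and stands on both lists, gave 0.56 ± 0.11, and Gadd45a, a stress-induced arrest gene, 0.48 ± 0.09. Irs1, an adaptor of the insulin receptor, was called higher (0.44 ± 0.09), as was Pdgfra, a receptor for platelet-derived growth factor (0.43 ± 0.12). Of 12 inhibitors of cyclin-dependent kinases and quiescence genes tested 3 were higher and 7 lower in both lines and none was called.

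Lysosomal genes were weakly higher. Of 31 lysosome and autophagy genes 19 were higher and 3 lower in both lines, the median was 0.11 and 2 were called. Of all genes 31.2% were higher and 31.4% lower in both lines, and 1.18% were called higher. Lamp2, a lysosomal membrane protein, had 1348 at 4 h and 1667 at 12 h in LLC-TDAG8 cells, and 1135 and 1688 in control cells. Its difference was 0.46 ± 0.13, and that of Atp6v0d1, a subunit of the proton pump, was 0.35 ± 0.09. Scarb2, another lysosomal membrane protein named by its rank and on no list, had 366 at 4 h and 679.9 at 12 h in LLC-TDAG8 cells, and 347 and 588 in control cells. It was 1.81-fold higher, the larger of these differences (0.86 ± 0.11). The E-box letters CACGTG, which TFEB and other factors of its class read, were in 10 of 26 promoters of the list (38.5%) and in 7.24% of all promoters, and in 1 of the 2 members called.

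Chemokines and NF-kB targets had the highest list median, a rank lost to the endothelial markers (3 genes tested) with probe sets averaged. Of 24 tested, 17 were higher and 2 lower in both lines and 4 were called higher, against 31.2%, 31.4% and 1.18% of all genes. The list median was 0.41 (0.43 in LLC-TDAG8, 0.33 in control cells). With probe sets averaged it was 0.26, beside 0.27 for the endothelial markers and 0.26 for the matrix proteases. Cxcl1, a neutrophil chemokine, had a signal of 1029.7 at 0 h, 490.4 at 4 h and 689 at 12 h in LLC-TDAG8 cells, and of 1175, 562 and 794 in control cells. The 12 h arrays were above the 4 h arrays (0.52 ± 0.09) and below the 0 h arrays. Ccl2, a monocyte chemokine, went from 1456 to 692 and 916 in LLC-TDAG8 cells and from 1209.5 to 426 and 560.4 in control cells, with a difference from 4 h to 12 h of 0.43 ± 0.13. Its 4 h and 12 h arrays overlap because the lines differ in level. Over the list, the median from 0 h to 4 h was -0.45; that step shares the 4 h arrays with the later one, so the values are only set side by side. Lcn2, the siderophore-binding lipocalin, had 15.7 at 4 h and 45.7 at 12 h in LLC-TDAG8 cells, and 24.6 and 89.5 in control cells, the largest called difference of the list (1.54 ± 0.20) at a low signal, and Vcam1, a leukocyte adhesion molecule, gave 0.57 ± 0.16. Ccl5 stood at 1.76 ± 0.59 but at signals of 2 to 30.4 and was not called. The letters GGGNNTTCC of an NF-kB site were in 3 of 17 promoters (17.6%), against 5.72% of all.

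Interferon-induced genes shared the direction without any call. Of 25 tested, 15 were higher and 1 lower in both lines, against 31.2% and 31.4% of all genes, with a list median of 0.30. Many had low signals: Parp9 gave 0.51 ± 0.10 at signals of 74 to 119, while Rsad2, an antiviral enzyme, gave 0.72 ± 0.13 at signals of 8.5 to 21.2. B2m, the light chain of class I molecules, was strong and nearly flat (0.12 ± 0.12). The core of the interferon-stimulated response element, GAAA, any 2 bases and GAAA again on either strand, was in 10 of 20 promoters (50%), against 3.49% of all.

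The remaining lists had few or no members called. Igf2, an insulin-like growth factor, was lower in both lines at signals of 4.4 to 12.9 (-0.85 ± 0.20) and was not called. Scd1, the stearoyl-CoA desaturase (0.43 ± 0.10), and Acsl3, which activates fatty acids (0.35 ± 0.09), were called higher among 14 genes of fatty acid synthesis, Bhlhe40, a repressor of clock genes (0.47 ± 0.10), among 13 of the clock repressor limb, and the histone gene H2bc21 (0.60 ± 0.12) among 9 histones. None was called among 31 genes of glycolysis and hypoxia (median 0.11), 25 chaperones of the unfolded protein response, 22 immediate early genes (median 0.11), 16 of TGF-beta and BMP feedback, 19 of Wnt and Notch signalling, 13 of the BCL2 family, 20 of sterol synthesis and 8 reference genes (median -0.023). The sterol and unfolded protein medians (0.055 and 0.066) turned negative with median centring (-0.019 and -0.018), where the median of all genes was -0.060. The sign of these 2 medians thus depends on the scaling. The letters TGANTCA of an AP-1 site were in 0 of 17 promoters of the immediate early list, against 7.93% of all, and TGTTTAC of a FOXO site in 2 of 17 of the FOXO list, against 3.55%, each on either strand.

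**Figure D3:**
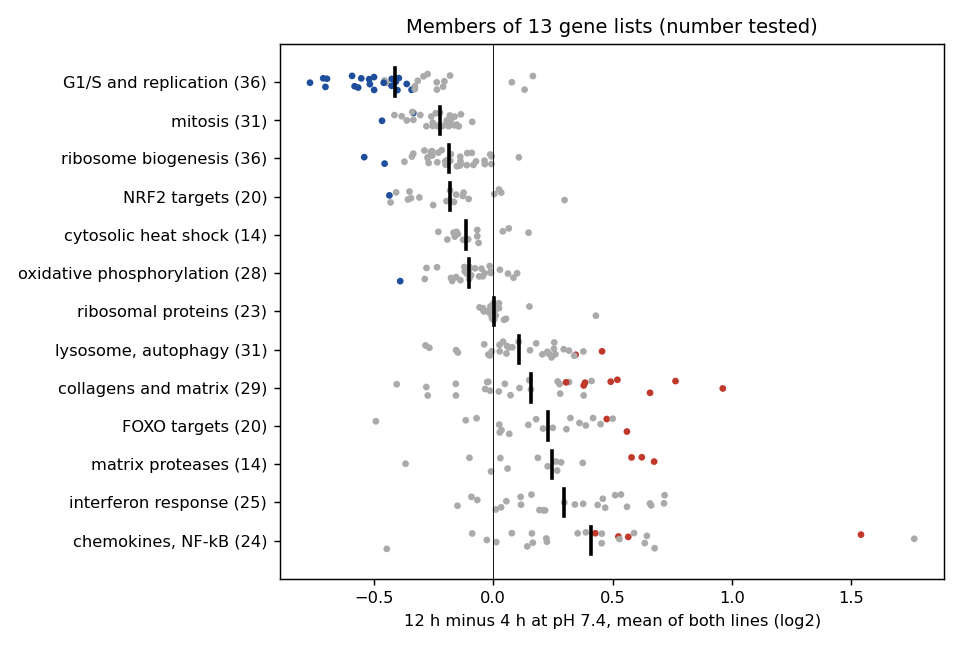
Difference 12 h minus 4 h at pH 7.4 (x axis, log2, mean of both lines) for the tested members of 13 gene lists (rows, number tested in brackets), spread vertically at random within a row, with the median as a black bar. Blue and red points were called lower and higher with limma's trend and robust settings and grey points were not, and the medians run from -0.41 for G1/S and replication to 0.41 for chemokines and NF-kB.

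Within a line there is 1 array a time and no test. In LLC-TDAG8 cells 176 genes (1.45%) were higher and 140 (1.15%) lower by 1 or more on the log2 scale, and in control cells 175 (1.44%) and 152 (1.25%). In both lines 24 (0.197%) were higher and 13 (0.107%) lower by that much, which is 13.6% of the LLC-TDAG8 and 13.7% of the control genes that were higher, and 9.29% and 8.55% of those lower. Most of those large differences sat at low signals, since only 14 and 21 genes were at or beyond 1 in the LLC-TDAG8 and control lines among genes with a signal of at least 50 on any neutral array. Across genes the differences of the 2 lines, which share no array, had a Pearson correlation of 0.176 over all 12161 genes and of 0.477 over the 8636 genes with a signal of at least 50 on any of the 4 arrays, as a description of genes that are not independent replicates.

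**Figure D4:**
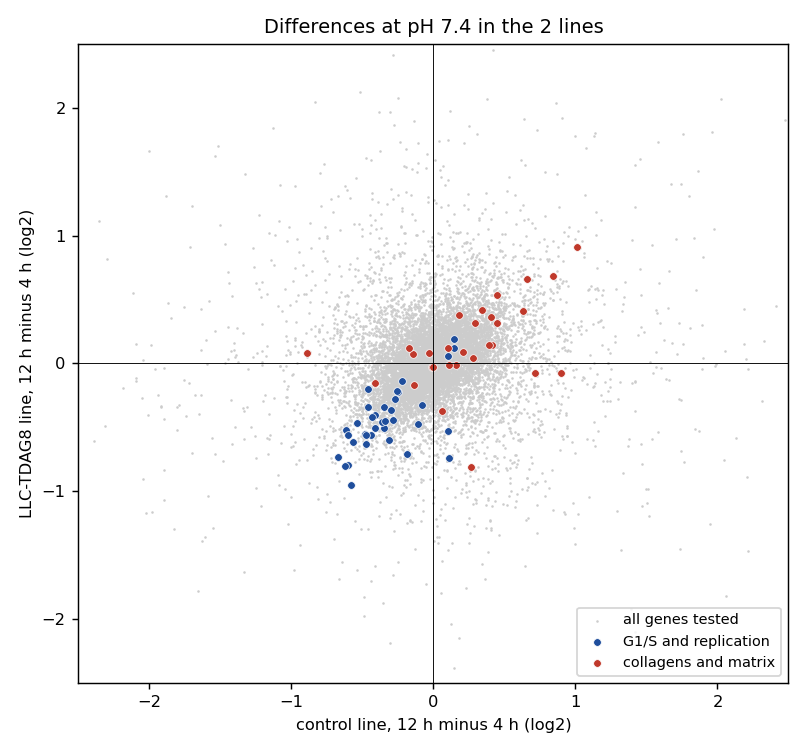
Difference 12 h minus 4 h at pH 7.4 in LLC-TDAG8 (y axis) against control cells (x axis), both log2, for all genes tested (grey), the G1/S and replication list (blue) and the collagen and matrix list (red), with 8 genes outside the axes. Of the 36 blue points 31 lie in the lower left quadrant and of the 29 red points 15 in the upper right.

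Some genes went opposite ways in the lines. By 0.58 or more in each line, 132 genes (1.09%) did so, 63 higher in LLC-TDAG8 and lower in control cells and 69 the other way. By the same limit 205 genes moved in the same direction in both lines. Among genes with a signal of at least 50 on any neutral array, only 4 went opposite ways by 0.58 or more. Ank3, ankyrin-G, a membrane skeleton adaptor, had 434 at 4 h and 719 at 12 h in LLC-TDAG8 cells, and 476 and 298 in control cells. Nes, the intermediate filament nestin, had 141 at 4 h and 79.8 at 12 h in LLC-TDAG8 cells, and 78.2 and 118 in control cells. The difference of Ank3 was 0.76 in LLC-TDAG8 and -0.66 in control cells, and that of Nes -0.82 and 0.54, so that their means over lines (0.048 and -0.14) describe neither line. With 1 array for each line and time the gap between lines has no test. It also rests on the probe set of highest signal: with all probe sets averaged Ank3 gave 0.14 in LLC-TDAG8 and 0.21 in control cells and Nes -0.27 and -0.40, the same direction in both.

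Some genes had another time course at pH 6.4. In a limma fit of time, pH and line over the 8 treated arrays, the difference from 4 h to 12 h was more positive at pH 7.4 than at pH 6.4 for 332 genes (2.73%) and more negative for 383 (3.15%) at an adjusted p under 0.05, and 3538 had an unadjusted p under 0.05. The share more positive was 46.4%, and 21% with median centring. The count was 0 when any of the 8 arrays was left out, 0 without the filter on low signals and 2274 with trend and robust. Fen1 gave 0.36 at pH 6.4, and the gap from its neutral value was -1.06 ± 0.17 (adjusted p = 0.0439). Among replication genes E2f8 (0.87 at pH 6.4, adjusted p = 0.0432), Dtl (0.83, 0.0429) and Cdt1 (0.38, 0.0473) also passed, all 4 with a neutral value below the acid one, and the list median was -0.0041 at pH 6.4. Pole and Tk1 were lower at pH 6.4 too (-0.52 and -0.82), with gaps of -0.19 ± 0.15 and 0.30 ± 0.14 that did not pass. Aurkb of the mitosis list passed as well (0.35 at pH 6.4, gap -0.81 ± 0.13, adjusted p = 0.0439), and so did Banp, Mxd3, Ptcd2 and Fancb among the named genes, each with a gap below 0.

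Genes with the opposite gap included the matrix proteoglycans. Dcn gave -0.48 at pH 6.4 (gap 1.44 ± 0.15, adjusted p = 0.0386) and Vcan -1.25 (gap 2.01 ± 0.33, 0.0439), while Fn1 (-0.10, 0.0559) and Lum (-0.84, 0.0662) did not pass. Crabp1 (-0.30, 0.0386), Atf5 (-1.43, 0.0386) and Sesn1 (-0.57, 0.0435) passed. Scarb2 was higher at 12 h at both pH values (0.78 at pH 6.4), with a gap of 0.074 ± 0.13. Pde4d gave 0.71 at pH 6.4, but its gap of 0.15 ± 0.70 was too imprecise to compare its 2 time courses. Of 36 ribosome biogenesis genes 6 passed with a gap below 0, among them Rrp1b (0.85 at pH 6.4) and Wdr43 (1.07), and of 20 sterol synthesis genes 6 passed with a gap above 0, against the 3.15% and 2.73% of all genes. For the sterol genes the gap came with pH 6.4 values from -1.41 for Mvk to -0.83 for Msmo1 beside neutral values from -0.22 to 0.15 (Nsdhl).

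**Figure D5:**
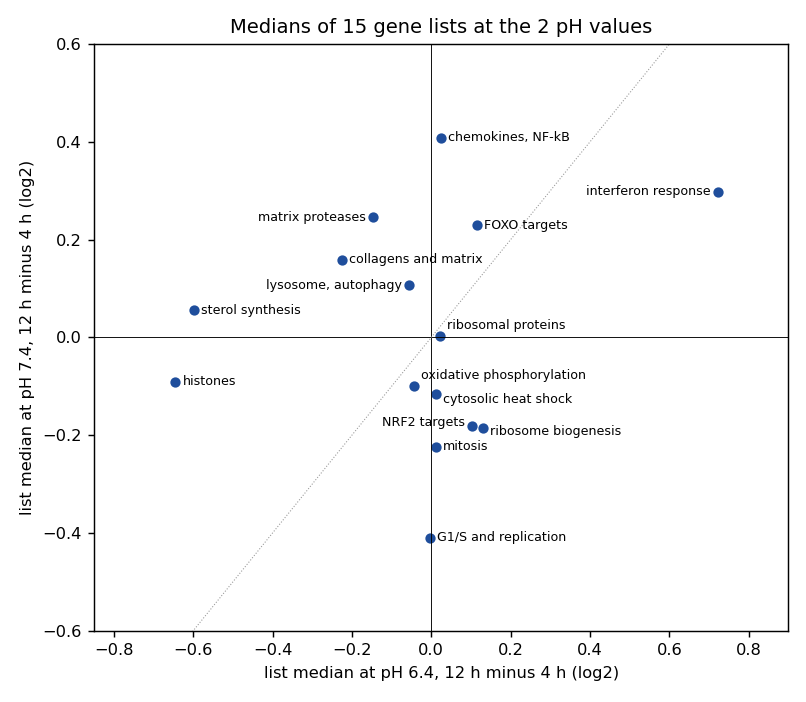
Median difference 12 h minus 4 h of 15 gene lists at pH 7.4 (y axis) against pH 6.4 (x axis), both log2 and means of both lines, with a dotted line of equal values. The G1/S and replication list sits at -0.41 at pH 7.4 and at -0.0041 at pH 6.4, and the interferon list is the farthest right, at 0.72.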

How the data were processed

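Total RNA was hybridised to Affymetrix Mouse Genome 430 2.0 arrays, biotin-labelled, per the labels' protocols. The authors deposited 1 linear signal intensity per probe set and array, with no present or absent calls used here. Which software made it is not given in the sources used here. All 10 arrays were quantile normalised here and taken as log2(signal + 2.4), with 2.4 the 20th percentile of all values, so differences of low signals are understated. Of 45101 probe sets, 34945 had 1 gene symbol in the platform annotation, 932 several and 9160 none, and 64 were control sets. A gene is its probe set of highest mean (18193 genes), and 12161 with a mean log2 at or above 3.17, the 40th percentile, were tested.

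The test was limma 3.58.1 in R 4.3.3 (lmFit and eBayes, Benjamini-Hochberg) on the 6 neutral arrays, with time at 3 levels and line as block. The 0 h arrays add only to the estimate of spread. The comparison with pH 6.4 used the 8 treated arrays. Scripts were tested on simulated data. The alternatives were other scalings, filters, pseudocounts and array sets, trend and robust eBayes, averaged probe sets (all of a gene, also those below the filter level) and arrays left out. The trend and robust setting combined with each of the others, the single arrays left out, averaged probe sets read within each line, and the E-box in the lysosome list and the E2F letters in the mitosis list were added after the data were seen. Named genes are the 15 largest in each direction by the smaller of the 2 line differences, of the same sign, with a signal of at least 50 on both arrays of the higher time and predicted genes skipped. To them were added list members of at least 0.58 in both lines, 3 genes of opposite sign in each orientation, and members whose role a described list turns on. The members and the 42 gene lists were chosen with earlier results of these data known. Pooling 4 cultures removes the spread between cultures.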

Additional observations from a re-analysis of the deposited data

Results flagged for a closer look

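In 6 named genes every array pair of one line moved one way and that of the other line the opposite way, and the difference between lines was not tested because each line and time has 1 array. The difference 12 h minus 4 h in LLC-TDAG8 minus that in control cells was 1.42 on the log2 scale for Ank3, 1.31 for Tmed9, which sorts proteins in the early secretory pathway, and 1.01 for B3galnt2, a glycosyltransferase. It was -1.36 for Nes, -1.59 for Fam219a and -0.92 for Kif22, a chromosome-binding kinesin. For Fam219a the control line held the larger step, with a signal of 61.6 at 4 h and 140 at 12 h, beside 108 and 78.5 in LLC-TDAG8 cells. These gaps rest on the probe set of highest signal. With all probe sets averaged the lines shared their direction in 5 of the 6 genes, for example at 0.45 in LLC-TDAG8 and 0.79 in control cells for Fam219a, and Tmed9 alone kept opposite signs (0.50 and -0.46).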

How the results depend on the processing

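With limma's default eBayes 0 genes passed for the difference from 4 h to 12 h with the arrays median centred, as deposited or quantile normalised over the 6 neutral arrays, without the filter or with a stricter one, with averaged probe sets, with 4 or 10 arrays, without the replicate block and without any single array, but 274 with trend and robust and 50 with a pseudocount of 32. Combined with trend and robust, the count was 194 to 385 with the other scalings, pseudocounts and the 60th percentile filter, 30 with no filter, 415 with the filter for a signal of 50, 52 with averaged probe sets, 535 with the 4 arrays alone, 25 with all 10 and 0 without the replicate block. Leaving out 1 of the 6 arrays gave 0 to 532 genes. Of the 274, all that were tested kept their direction under these settings, except 4 of 274 with averaged probe sets. For many settings this was fixed in advance. Filters, 4 or 10 arrays, no block and left-out 0 h arrays do not alter the difference, and a pseudocount cannot turn its sign within a line. Only the scalings, averaged probe sets and left-out 4 h or 12 h arrays put the direction to a check.

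Counts without a test moved with the treatment of low signals. Beyond 1 in the LLC-TDAG8 line, in the control line and in both, and beyond 0.58 in opposite directions, they were 1567, 1670, 208 and 728 with no filter, 17, 22, 3 and 8 with the 60th percentile filter, 14, 21, 4 and 4 with the filter for a signal of 50, 80, 121, 9 and 52 with a pseudocount at the 40th percentile, and 3, 3, 0 and 1 with a pseudocount of 32. Averaged probe sets gave 191 in the LLC-TDAG8 line and 19 in both, a pseudocount at the 5th percentile 60 in both, and a limit of 0.58 gave 1087, 1123 and 205. For the comparison with pH 6.4 the count was 0 with no filter, 2028 with the 60th percentile filter, 54 with averaged probe sets, 1162 and 2035 with pseudocounts at the 40th percentile and of 32, 2274 with trend and robust, and 0 with any 1 of the 8 arrays left out.

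Of the 42 named genes, Acta2 turned to 0.038 and Tmed9 to 0.018 with averaged probe sets, Ank3 to -0.051 with median centring, and Kif22 to -0.091 with median centring, -0.013 as deposited and -0.19 with averaged probe sets. Averaging also moved 12 of 35 genes chosen for 1 direction by over 1.5 times, all but Acta2 in the same direction: Dcn to 0.51, Vcan to 0.19, Hspb11 to 0.18, Scara5 to 0.25, Vsir to 0.43, Tet2 to 0.53, Crebrf to 0.46, Rora to 0.44, Etv4 to -0.47, Mgst3 to -0.43 and Ticrr to -0.33. Genes chosen for opposite signs had, in LLC-TDAG8 and control cells alone, 0.76 and -0.66 for Ank3, 0.56 and -0.76 for Tmed9, 0.47 and -0.54 for B3galnt2, -0.82 and 0.54 for Nes, -0.46 and 1.13 for Fam219a and -0.46 and 0.46 for Kif22. The causes were not tested. The number of arrays limits the precision, and genes near the background signal carry the least reliable differences.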
